A study of Mus musculus with 18 samples.

Results

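The genes described here encode the proteasome: its catalytic core particle, its regulatory particle, the chaperones that assemble them and the caps that can take the place of the regulatory particle. They were chosen by name, as every gene of the count table whose symbol begins with Psma to Psmg followed by a number, leaving out the interferon-inducible subunits Psmb8, Psmb9 and Psmb10. This gave 46 of the 54186 genes in the table. The rule reads names and no measured value.

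The 26S proteasome degrades proteins that carry ubiquitin chains. Its 20S core is a stack of rings, with alpha subunits forming the outer gate and beta subunits lining the chamber, where Psmb5, Psmb6 and Psmb7 hold the catalytic sites. The 19S regulatory particle sits on the gate and binds, unfolds and feeds in substrates with a ring of ATPases (Psmc genes) and a set of non-ATPase subunits (Psmd genes). Beta cells fold and secrete large amounts of protein, and impaired proteasomal degradation has been studied there as one consequence of misfolded islet amyloid polypeptide (IAPP, or amylin), a hormone released together with insulin.

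Bulk islets were taken from 18 FVB mice at 6 weeks of age, 6 of each of 3 genotypes. WT mice carried no transgene, hIAPP mice expressed human IAPP and rIAPP mice expressed rodent IAPP, both transgenes under the insulin II promoter and described as specific to beta cells. The rodent protein does not form amyloid, so the rIAPP mice carry the same kind of transgene without an amyloid-forming product. RNA came from 165 ± 6 islets per mouse with integrity numbers of 8.4 to 9.5, and ribosomal RNA was depleted before sequencing. The transgenes drive expression in beta cells, whereas the RNA came from whole islets, so fewer cells of one type and less RNA per cell cannot be told apart.

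Library totals were 144.3 to 166.2 M counts in WT, 109.6 to 141.5 M in hIAPP and 127.6 to 157.5 M in rIAPP, and levels are given below as CPM, each gene's counts scaled to a common library total with edgeR's TMM factors. Islet endocrine markers made up 126470 to 157330 CPM in WT, 68503 to 127230 in hIAPP and 71130 to 101880 in rIAPP. The 23 acinar (exocrine) markers were all detected, with summed levels of 1143 to 4857 CPM in WT, 3123 to 22297 in hIAPP and 5161 to 22879 in rIAPP. The 13 macrophage markers, also all detected, summed to 140 to 163, 377 to 755 and 94.8 to 112 CPM. The mouse Iapp gene read 34200 ± 5459 CPM in WT, 25568 ± 3782 in hIAPP and 39138 ± 3727 in rIAPP (SD, n = 6), and the libraries of rIAPP (32825 to 43826) overlapped those of WT (25586 to 40072). These levels check neither transgenic label: the human transgene has its own sequence, and how reads of the rodent transgene were counted is unknown.

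Of the 46 proteasome genes, 45 passed the filter on low counts and were tested, and 43 had a mean of at least 1 CPM. The untested gene was Psmb11, the beta subunit of the thymus-specific proteasome. Psma8, the testis-specific alpha subunit, and Psme2b, a copy of the activator gene Psme2, were tested but stayed below 1 CPM. All 46 genes together took 0.176% ± 0.0108 of the counts in WT, 0.177% ± 0.0111 in hIAPP and 0.185% ± 0.00727 in rIAPP (SD, n = 6).

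The promoters of the genes that the comparisons turn on are shown here so that their bases stand beside the levels. Each is 120 bases in the direction of the gene, from 100 bases before the RefSeq start site to 20 bases from it on (build GRCm38.p6), and capitals mark a match to one of 5 short motifs on either strand. Psmd1 (chr1:86064519-86064638, plus strand), Psmd6 (chr14:14120926-14121045, minus) and Psmd11 (chr11:80428515-80428634, plus) are regulatory particle genes, and Psmc5 (chr11:106256085-106256204, plus) is an ATPase gene of the same particle. Psmb5 (chr14:54617976-54618095, minus) is the catalytic subunit followed throughout. Psme1 (chr14:55578394-55578513, plus), Psme3 (chr11:101316113-101316232, plus) and Psme4 (chr11:30771675-30771794, plus) encode caps of the core, and Psmf1 (chr2:151741291-151741410, minus) encodes the regulator PI31. Psmd3, also called below, has no entry in the promoter table used here.
Psmd1: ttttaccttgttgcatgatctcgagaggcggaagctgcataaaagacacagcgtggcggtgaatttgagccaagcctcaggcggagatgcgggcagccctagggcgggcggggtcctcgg
Psmd6: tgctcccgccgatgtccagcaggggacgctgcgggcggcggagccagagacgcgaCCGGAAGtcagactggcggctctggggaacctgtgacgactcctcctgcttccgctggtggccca
Psmc5: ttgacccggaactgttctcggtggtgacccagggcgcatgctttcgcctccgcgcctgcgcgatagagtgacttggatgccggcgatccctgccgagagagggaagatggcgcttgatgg
Psmd11: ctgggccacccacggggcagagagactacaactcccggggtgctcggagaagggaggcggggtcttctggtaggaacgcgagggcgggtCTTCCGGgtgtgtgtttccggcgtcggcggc
Psmb5: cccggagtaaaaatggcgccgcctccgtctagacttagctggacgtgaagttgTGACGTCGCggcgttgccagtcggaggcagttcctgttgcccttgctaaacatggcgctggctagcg
Psme1: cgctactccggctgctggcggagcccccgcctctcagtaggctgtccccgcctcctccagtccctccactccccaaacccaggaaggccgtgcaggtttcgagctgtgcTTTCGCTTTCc
Psme3: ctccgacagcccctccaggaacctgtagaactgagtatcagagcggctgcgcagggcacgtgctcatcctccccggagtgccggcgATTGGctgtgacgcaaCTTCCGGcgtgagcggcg
Psme4: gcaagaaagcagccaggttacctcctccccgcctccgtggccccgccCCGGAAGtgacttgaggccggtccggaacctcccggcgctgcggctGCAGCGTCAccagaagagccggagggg
Psmf1: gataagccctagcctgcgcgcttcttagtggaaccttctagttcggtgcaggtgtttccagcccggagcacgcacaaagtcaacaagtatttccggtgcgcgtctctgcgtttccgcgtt
The motifs were the ETS site CCGGAAG, the antioxidant response element core TGACNNNGC, the CCAAT box, the core of the interferon-stimulated response element and the interferon gamma activated site TTCNNNGAA. Of the 46 genes, 38 had an entry in the RefSeq table, with 41 promoters of 300 bases between them. The ETS site was found in 15 of these 41 (36.6%), against 8.86% of all 32851 mouse promoters of that length. Psmd6 holds it 45 to 39 bases before the start, Psme4 53 to 47 bases before, and Psmd11 on the opposite strand 11 to 5 bases before. The interferon-stimulated core was found in 5 (12.2%, against 3.44% of all), Psme1 among them, where it lies at bases 10 to 19 after the start on the opposite strand. The antioxidant core was found in 6 (14.6% against 12.4%), namely Psmb5, Psmb6, Psmc6, Psmd9, Psmd12 and Psme4. The CCAAT box (31.7% against 37.4%) and the interferon gamma site (4.88% against 8.3%) complete the search. These are matches of letters, several motifs can share bases, and binding was not measured.

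In WT islets the core and regulatory particle genes were expressed at similar levels per length of gene. On the scale of CPM per kb of annotated exon, the median of the 8 alpha genes was 17.1, that of the 8 beta genes 14.6, that of the 6 ATPase genes 16.9 and that of the 11 non-ATPase genes 13.3. The assembly chaperones were lower, with a median of 5.28 for the 4 chaperones of the core and 3.74 for the 3 of the regulatory particle. Psmc1, an ATPase, had the highest level of all (42.7 ± 7.36 CPM per kb), followed by the catalytic subunit Psmb6 (37.5 ± 2.86) and Psmb2 (37.2 ± 3.22), and these 3 did not differ beyond their spread over the 6 WT mice. Psmb5 lay at 10.1 ± 0.538 and Psmd11 at 4.10 ± 0.352, the lowest of the non-ATPase subunits. Of the activators, Psme1 reached 25.8 ± 2.23 and Psme2, its partner in the PA28 ring, 14.8 ± 1.04. The interferon-inducible subunits were lower than their constitutive counterparts, with Psmb8 at 3.73 ± 0.310 (counterpart Psmb5), Psmb9 at 1.98 ± 0.187 (Psmb6) and Psmb10 at 5.16 ± 0.167 (Psmb7, 12.8 ± 1.13). The lengths count every annotated exon. With the exons of coding transcripts alone, a setting added after the data had been seen, the medians of the same 4 groups were 26.7, 25.5, 28.1 and 25.5, those of the chaperones were lower at 6.01 and 6.14, and Psmb6 (87.9) came first in place of Psmc1 (51.9). On that scale Psmb8 (7.75) lay nearer to Psmb5 (10.1), while Psmb9 was at 5.37 and Psmb10 at 6.71 beside Psmb7 at 37.6.

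**Figure D1:**
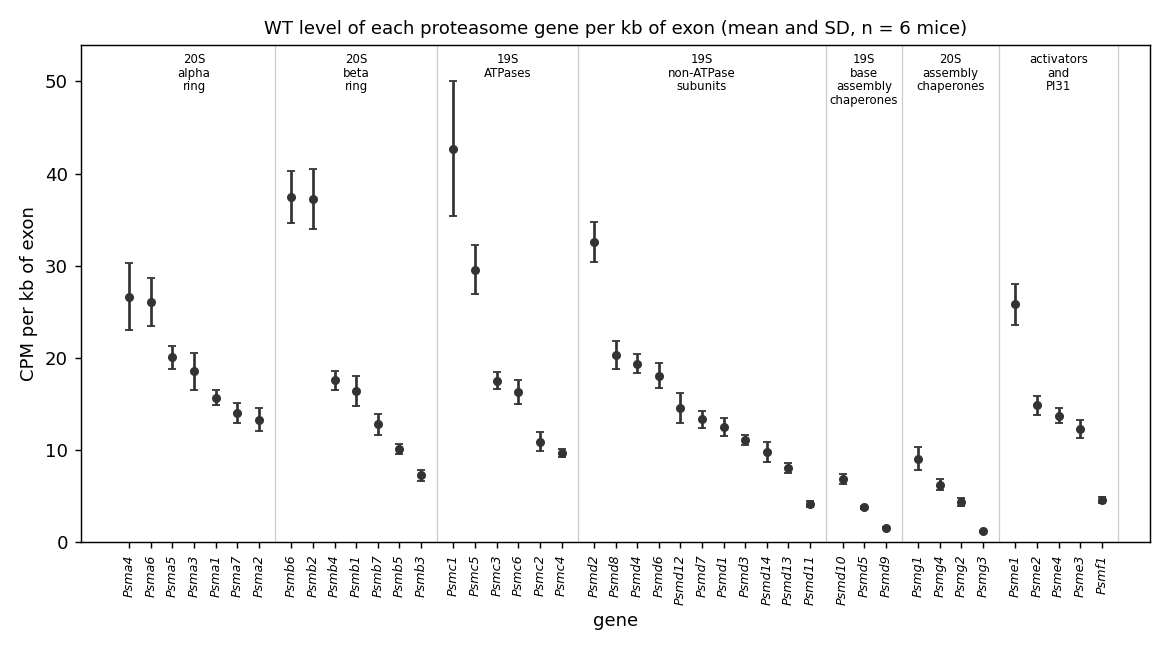
Level of each of the 43 proteasome genes with at least 1 CPM in WT islets, in CPM per kb of annotated exon (points: mean, lines: SD over 6 mice), grouped by role. Psmc1, Psmb6 and Psmb2 stand highest at 42.7, 37.5 and 37.2, and the assembly chaperones lie below 10 CPM per kb.

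The proteasome genes varied little among mice of the same genotype. Their median coefficient of variation was 7.96% in WT, 5.59% in hIAPP and 6.14% in rIAPP, against 9.23%, 10.1% and 9.47% over the 14121 genes with at least 1 CPM. Over these genes 1 WT library lay apart from the other 5. In WT 5, 41 of the 43 genes were below their WT mean, with a median log2 deviation of -0.18, whereas the other 5 WT libraries had medians of 0.0047 to 0.083. The 6 hIAPP libraries lay between -0.12 and -0.053 and the 6 rIAPP libraries between -0.11 and 0.076. WT 5 therefore read lower over these genes than every transgenic library. Over all 14121 genes, 59.3% were below their WT mean in WT 5, against 42.6% to 52.7% in the other WT libraries, and WT 5 also had the lowest mean log2 CPM of the acinar markers (4.37). Each WT comparison is therefore given with and without it.

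**Figure D2:**
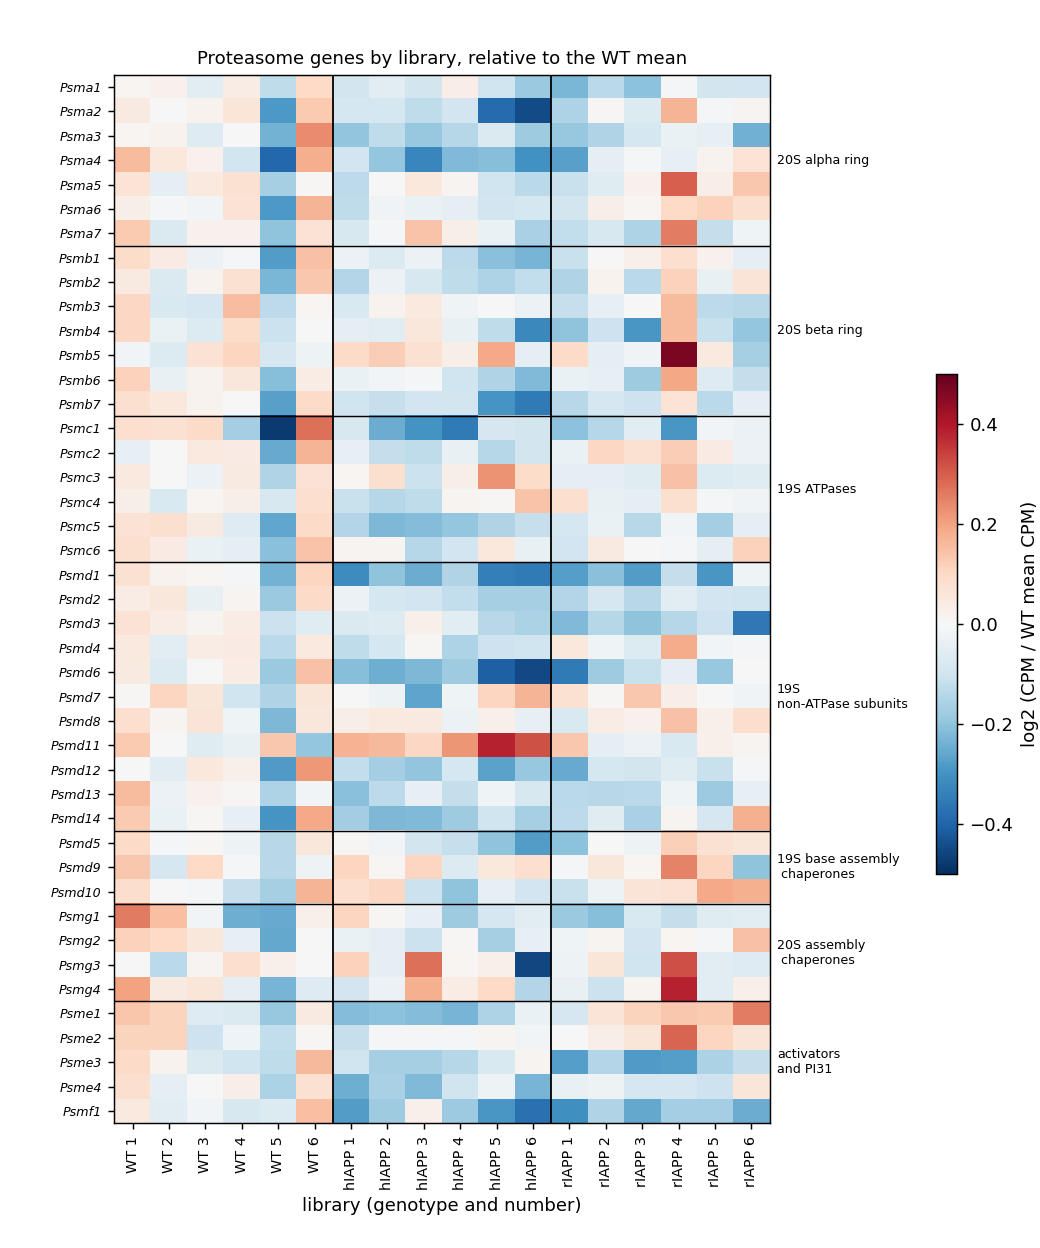
Heat map of 43 proteasome genes (rows, grouped by role) in 18 libraries (columns), coloured by the log2 ratio of each library's CPM to the WT mean. WT 5 is blue in 41 of 43 rows, Psmd11 is red across the hIAPP columns, and Psmd1, Psmd6 and Psmf1 are mostly blue in both transgenic genotypes.

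**Figure D3:**
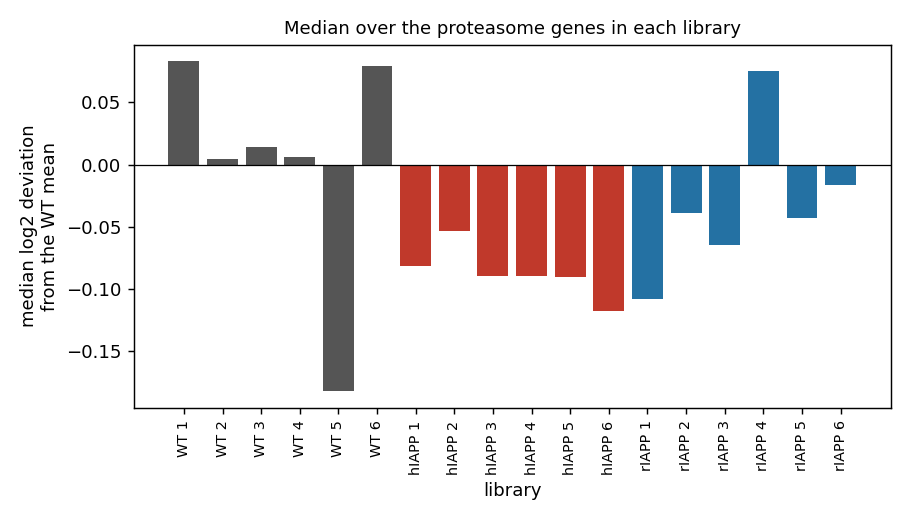
Median over the 43 proteasome genes of the log2 deviation from the WT mean, 1 bar per library. WT 5 has the lowest bar (-0.18), and the 6 hIAPP libraries lie in the narrow range from -0.12 to -0.053.

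The first comparison asked how proteasome genes differed in islets that express human IAPP. In hIAPP against WT, 5 of the 45 genes tested fell, 1 rose and 39 did not pass edgeR's quasi-likelihood test at a Benjamini-Hochberg adjusted p of 0.05 over 20244 genes. Of all genes tested 15.8% were called (8.31% higher, 7.53% lower), and of the proteasome genes 13.3%. An unadjusted p under 0.05 was reached by 14 of the 45 (28.6% of all genes). Those that fell were Psmd1, Psmd6, Psmf1, Psmc5 and Psme4, and the one that rose was Psmd11. The fitted changes were small: the median over the 45 genes was -0.087 on the log2 scale (all genes -0.0098), 37 of 45 were below 0 (82.2%, against 51.7% of all genes), and every one of the 45 lay within 1.25-fold of WT, which held for 75.0% of all genes. The median SE was 0.062 for the 45 genes and 0.115 for all genes, here and in the later comparisons. The shares within 1.25-fold therefore do not compare like with like. Among the 43 genes above 1 CPM the 95% intervals reached from 0.748-fold (Psmd6) to 1.28-fold (Psmd11). In none of the 45 did the 6 hIAPP libraries lie wholly apart from the 6 WT libraries, while 6.63% of all genes did.

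By role, edgeR's 6 calls in hIAPP islets were 4 genes of the regulatory particle, 1 cap and the regulator PI31, beside 15.8% called of all genes. Of the 8 alpha genes and the 7 beta genes tested, none was called by edgeR or limma-voom, 3 and 1 of them had an unadjusted p under 0.05, and DESeq2 called 1 alpha gene (Psma4). Of the 6 ATPase genes 1 fell, of the 11 non-ATPase genes 2 fell and 1 rose, and of the 6 activator and PI31 genes 2 fell. None of the 7 assembly chaperones was called by edgeR, DESeq2 or limma-voom, or had an unadjusted p under 0.05. Whether the roles differ from each other was not tested.

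Psmd1 (chr1:86064387-86139151), the largest scaffold subunit of the regulatory particle, read 95.7, 92.02, 91.5, 90.5, 77.1 and 97.9 CPM in WT 1 to 6. It read 73.1, 78.9, 76.5, 81.9, 71.6 and 71.1 CPM in hIAPP and 75.0, 78.5, 74.9, 83.5, 74.2 and 89.5 CPM in rIAPP. All hIAPP libraries were below the other 5 WT libraries, and only WT 5 fell within their range. The fitted change in hIAPP was -0.27 ± 0.062 (log2, SE; edgeR adjusted p = 0.00607), lower than the WT mean in 6 of 6 libraries.

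Psmd6 (chr14:14112174-14120984), another scaffold subunit of the lid of the regulatory particle, read 52.2, 48.3, 50.6, 51.9, 44.5 and 56.1 CPM in WT. In hIAPP it read 43.6, 42.8, 43.3, 44.8, 38.2 and 37.0 CPM, with hIAPP 5 and 6 lowest, and 1 hIAPP library overlapped WT 5. The change was -0.28 ± 0.066 (edgeR adjusted p = 0.00645), lower in 6 of 6. In rIAPP its levels of 39.6, 44.7, 46.8, 48.9, 44.4 and 50.5 CPM overlapped WT and the test was not passed (-0.14 ± 0.066, edgeR adjusted p = 0.123).

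Psmd11 (chr11:80428615-80473248), a lid subunit of the regulatory particle, went the other way. Its WT levels were 28.7, 26.1, 25.1, 25.5, 28.7 and 22.9 CPM and its hIAPP levels 29.5, 29.3, 28.1, 30.5, 34.1 and 32.6 CPM. All hIAPP libraries but hIAPP 3 were above the highest WT library, and hIAPP 5 and 6 were the highest. The change was 0.23 ± 0.061 (edgeR adjusted p = 0.0140), higher in 6 of 6.

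Psmc5 (chr11:106256154-106263120), an ATPase of the regulatory particle, read 43.3, 43.6, 42.5, 39.4, 34.4 and 44.1 CPM in WT. Its hIAPP levels were 37.2, 35.2, 35.5, 36.0, 37.1 and 38.0 CPM, below every WT library but WT 5, which was lower than all of them. The change was -0.17 ± 0.054 (edgeR adjusted p = 0.0348), lower in 6 of 6. Psme4, which encodes the single-chain cap PA200, read 115 ± 6.97 CPM in WT and 103 ± 6.29 in hIAPP, a change of -0.16 ± 0.052 (edgeR adjusted p = 0.0389). These 2 calls were kept in 8 and 6 of 21 alternative analyses, those of Psmd11, Psmd1 and Psmd6 in 19, 18 and 18.

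Psmf1 (chr2:151715812-151744186) encodes PI31, which binds the core and was first described as its inhibitor. It read 30.3, 28.2, 29.1, 27.7, 27.9 and 32.5 CPM in WT, 24.1, 25.9, 29.8, 25.8, 23.9 and 22.6 CPM in hIAPP and 23.7, 26.4, 24.5, 26.1, 26.0 and 24.6 CPM in rIAPP. All 6 rIAPP libraries were below all 6 WT libraries, and in hIAPP only hIAPP 3 was within the WT range. The changes against WT were -0.21 ± 0.060 in hIAPP (edgeR adjusted p = 0.0233) and -0.22 ± 0.060 in rIAPP (edgeR adjusted p = 0.0105), the 2 comparisons sharing the same WT libraries, and hIAPP against rIAPP gave 0.0082 ± 0.060 (edgeR adjusted p = 0.94). The hIAPP call was kept in 12 of 21 alternative analyses and the rIAPP call in 18 of 20.

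**Figure D4:**
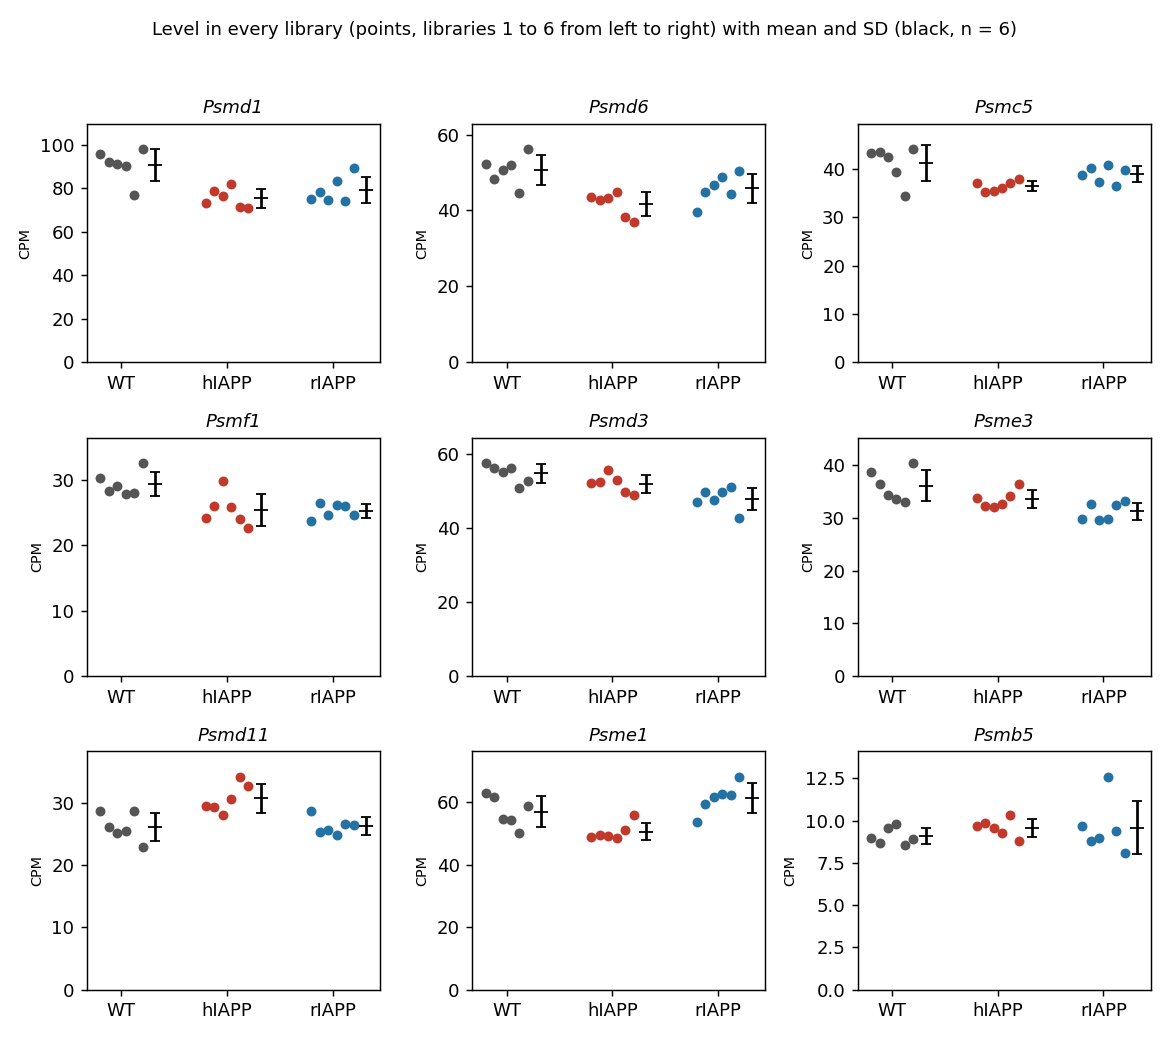
CPM of 9 proteasome genes in every library (points, 1 to 6 from left to right within a genotype) with the mean and SD of each genotype (black, n = 6). Psmf1 separates rIAPP (23.7 to 26.4) from WT (27.7 to 32.5), Psmd11 is highest in hIAPP 5 and 6, and WT 5 is the lowest WT point for Psmd1, Psmd6 and Psmc5.

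Without WT 5 more genes were called in hIAPP against WT: 16 fell and 1 rose of 45, with all 6 of the full analysis among them, and 19.2% of all genes were called. The 11 further genes were Psma2, Psma3 and Psma4 of the alpha ring, Psmb1 and Psmb7 of the beta ring, the ATPases Psmc1 and Psmc2, the non-ATPase subunits Psmd2, Psmd12 and Psmd14, and Psme1. All 11 were lower in hIAPP, and the median over the 45 genes was -0.13. Leaving out hIAPP 5 and 6 together, which had the highest mean acinar marker levels of the genotype (7.49 and 8.25 log2 CPM), left no called gene of 45 by edgeR (12 with an unadjusted p under 0.05), while 8.15% of all genes were still called. Of the values for Psmd1, Psmd6 and Psmd11, all kept their sign there, at -0.22, -0.21 and 0.17. hIAPP 5 and 6 also read lower for Ins1 (16973 and 25897 CPM, against 37935 to 42280 in hIAPP 1 to 4). For the macrophage marker C1qb they read higher (41.8 and 40.1 CPM, against 16.4 to 20.9). Their Sst and Ppy levels lay within the range of hIAPP 1 to 4, and the macrophage marker Cd14 was lower. Which of these differences goes with the lost calls was not tested. With the mean log2 level of the acinar markers as a covariate edgeR also called none (11 with an unadjusted p under 0.05). Of all genes 3.87% were called there, and Psmd1, Psmd6 and Psmd11 were at -0.30, -0.23 and 0.21. That covariate largely follows genotype: it ran from 4.37 to 6.29 in WT, 5.58 to 8.25 in hIAPP and 6.46 to 8.44 in rIAPP. A call lost with it therefore does not separate acinar content from genotype.

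The second comparison asked the same of rodent IAPP. In rIAPP against WT, 4 of 45 genes fell, none rose and 41 did not pass (edgeR, adjusted p of 0.05). Of all genes tested 26.8% were called, 14.1% higher and 12.6% lower, against 8.89% of the proteasome genes. DESeq2 and limma-voom called none higher either, and 8 of 45 had an unadjusted p under 0.05 by edgeR (36.1% of all genes). Those that fell were Psmd3, Psme3, Psmf1 and Psmd1. The median over the 45 genes was -0.021 (all genes -0.015), and 26 of 45 were below 0 (57.8%, against 52.4% of all genes). All 45 were within 1.25-fold, against 66.5% of all genes. Psmf1 was the only one of the 45 whose rIAPP and WT libraries did not overlap, while 14.9% of all genes were so separated.

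Psmd3 (chr11:98682554-98695979), a lid subunit of the regulatory particle, read 57.6, 56.3, 55.3, 56.4, 50.9 and 52.7 CPM in WT. In rIAPP it read 47.0, 49.8, 47.7, 49.7, 51.1 and 42.8 CPM, with only rIAPP 5 inside the WT range, and in hIAPP 52.2, 52.5, 55.8, 52.9, 49.8 and 49.1 CPM. The rIAPP change was -0.19 ± 0.049 (edgeR adjusted p = 0.00535), lower in 6 of 6, and the hIAPP change against WT was -0.076 ± 0.049 (edgeR adjusted p = 0.337).

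Psme3 (chr11:101316213-101323537) encodes PA28gamma, a nuclear activator of the core. It read 38.6, 36.5, 34.4, 33.7, 33.0 and 40.4 CPM in WT and 29.8, 32.6, 29.7, 29.8, 32.4 and 33.2 CPM in rIAPP, where only rIAPP 6 reached the lowest WT library. In hIAPP it read 33.7, 32.2, 32.2, 32.7, 34.3 and 36.5 CPM, overlapping both. The rIAPP change was -0.21 ± 0.055 (edgeR adjusted p = 0.00710), lower in 6 of 6.

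Psmd1 was lower in rIAPP as well, by -0.20 ± 0.062 (edgeR adjusted p = 0.0220), with its values in every library given above. Its rIAPP call was kept in 13 of 20 alternative analyses, and those of Psmd3 and Psme3 in 18. Neither the core rings, the ATPases nor the chaperones held a gene called by edgeR or limma-voom in this comparison, 1 of these genes had an unadjusted p under 0.05 (Psma1), and DESeq2 called that gene. Without WT 5, 11 genes fell and none rose (25.9% of all genes called), the 7 further ones being Psma1, Psma3, Psmc5, Psmd2, Psmd6, Psmd12 and Psmd13, and the median was -0.059. With the acinar covariate none was called by edgeR (3 with an unadjusted p under 0.05), and 10.4% of all genes were. Every rIAPP library lay above every WT library on that covariate, so it and genotype cannot be fully told apart here.

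The direction of both WT comparisons depends on how libraries are scaled. The TMM factors averaged 0.948 in WT, 1.03 in hIAPP and 1.03 in rIAPP. Scaled by library totals alone, the median of all genes moved to 0.106 in hIAPP and 0.103 in rIAPP, and that of the proteasome genes to 0.028 and 0.098. Psmd11 was then the only one of the 45 called in hIAPP (17.9% of all genes called). In rIAPP 5 were called higher (Psmc2, Psmd8, Psmd10, Psme1 and Psme2) and none lower (29.4% of all genes called), the 4 that fell under TMM scaling keeping values of -0.097 to -0.075. Psmd1, Psmd6 and Psmf1 remained below 0 in hIAPP, at -0.15, -0.17 and -0.091, without passing the test. The direction of the proteasome genes against WT is thus given relative to the bulk of the genes.

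The third comparison set islets expressing human IAPP against islets expressing rodent IAPP, whose product does not form amyloid. The 2 genotypes also differed in cell type markers, as given below, and any part of amyloid was not tested. In hIAPP against rIAPP, 1 of 45 genes fell (Psme1), 1 rose (Psmd11) and 43 did not pass (edgeR, adjusted p of 0.05), which is 4.44% of the proteasome genes where 27.6% of all genes were called (13.5% higher, 14.1% lower). An unadjusted p under 0.05 was reached by 10 of 45 (37.7% of all genes). The median was -0.069 (all genes -8.6e-06), and 33 of 45 were below 0 (73.3%, against 50% of all genes). All 45 lay within 1.25-fold, against 65.1% of all genes. The libraries of the 2 genotypes did not overlap for 1 gene, Psmc2, which was lower in hIAPP and did not pass the test, while 13.4% of all genes were so separated.

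Psme1 (chr14:55578123-55581529) encodes PA28alpha, a subunit of the interferon-inducible cap of the core. It read 49.0, 49.5, 49.1, 48.5, 51.2 and 55.8 CPM in hIAPP, 53.8, 59.5, 61.6, 62.6, 62.4 and 68.1 CPM in rIAPP and 62.8, 61.6, 54.6, 54.2, 49.99 and 58.9 CPM in WT. Only hIAPP 6 rose above the lowest rIAPP library, and the WT values overlapped both. The difference was -0.28 ± 0.062 (edgeR adjusted p = 0.00175), and the call was kept in 21 of 21 alternative analyses. Psme2, which encodes PA28beta, read 25.7 ± 0.790 CPM in hIAPP and 28.0 ± 2.09 in rIAPP, a difference of -0.12 ± 0.054 that did not pass (edgeR adjusted p = 0.112).

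Psmd11 read 28.7, 25.4, 25.7, 24.8, 26.6 and 26.4 CPM in rIAPP, so that hIAPP was higher than all but rIAPP 1 in each of its 6 libraries. The difference was 0.22 ± 0.061 (edgeR adjusted p = 0.00848), kept in 20 of 21 alternative analyses. It was lost without hIAPP 5 and 6 (0.16, edgeR adjusted p = 0.0785). Against WT, rIAPP gave 0.0049 ± 0.061 for this gene (edgeR adjusted p = 0.968).

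Psmb5 (chr14:54614119-54618022), the subunit with the chymotrypsin-like activity and the target of proteasome inhibitor drugs, was followed whatever its change. It read 8.99, 8.67, 9.54, 9.79, 8.58 and 8.92 CPM in WT, 9.69, 9.88, 9.58, 9.27, 10.3 and 8.77 CPM in hIAPP and 9.70, 8.81, 8.98, 12.6, 9.40 and 8.09 CPM in rIAPP. The 3 genotypes overlapped, with rIAPP 4 above every other library. The changes were 0.079 ± 0.083 in hIAPP and 0.080 ± 0.083 in rIAPP against WT, with 95% intervals of -0.096 to 0.25 and -0.094 to 0.25, and neither passed (edgeR adjusted p = 0.604 and 0.548).

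**Figure D5:**
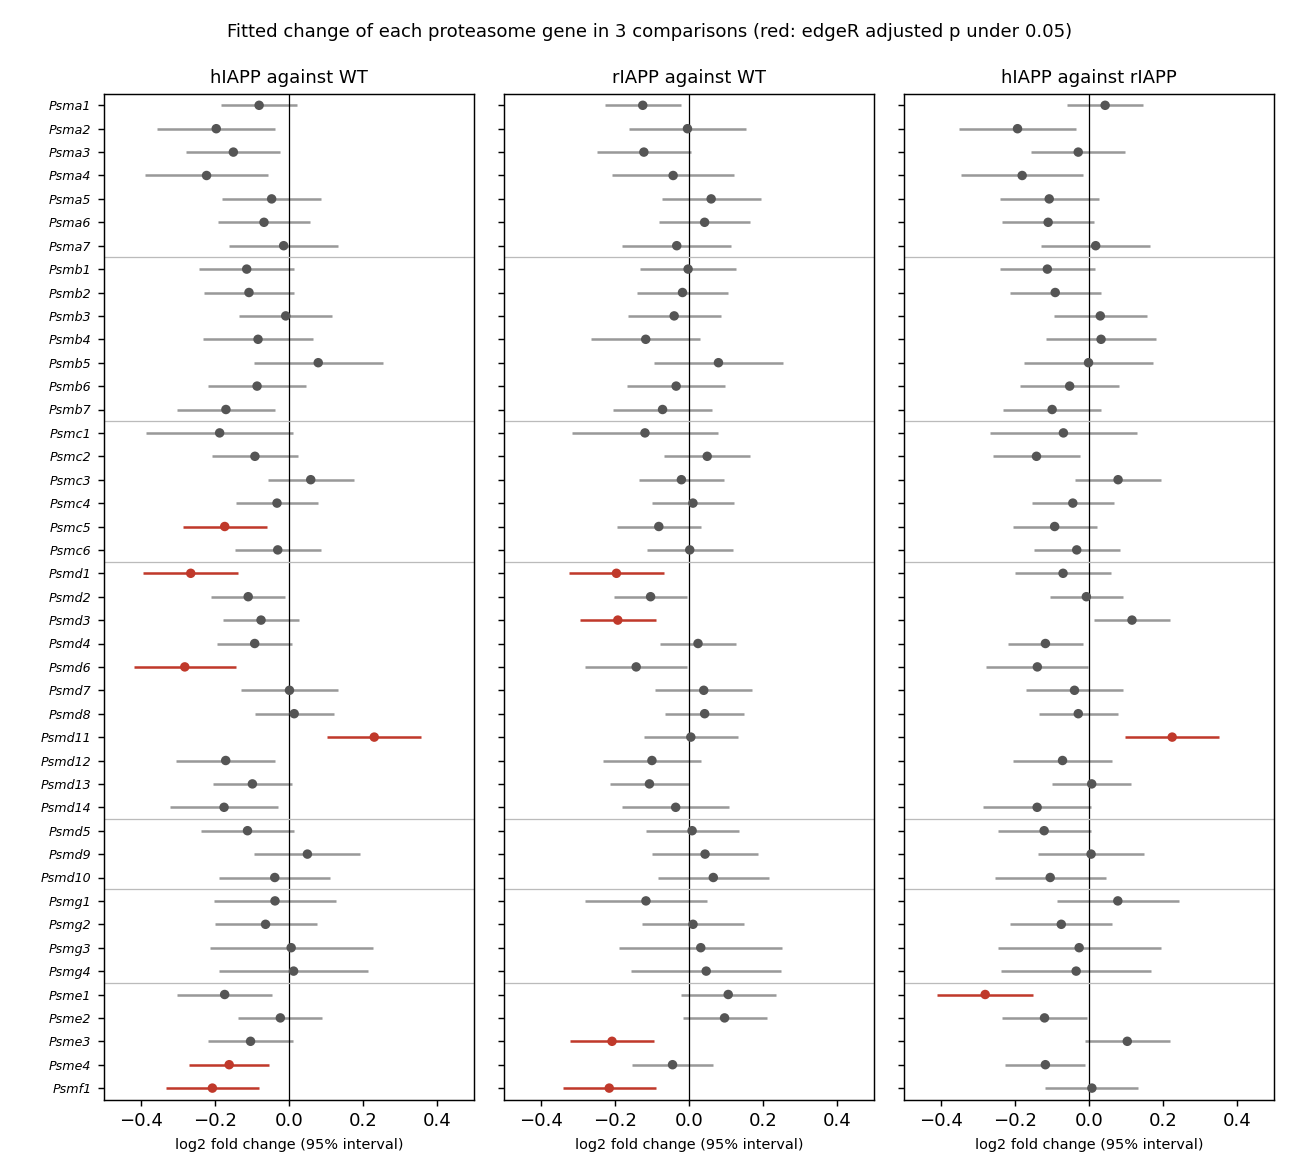
Fitted log2 fold change of 43 proteasome genes with its 95% interval in each of the 3 comparisons, grouped by role, red where the edgeR adjusted p was under 0.05. The red points number 6, 4 and 2 from left to right, and the points run from -0.28 to 0.23.

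The interferon-inducible subunits, which replace the catalytic ones in the immunoproteasome, included fitted changes larger in size than any of the 45 genes. These were Psmb10 in rIAPP against WT, and Psmb10 and Psmb9 in hIAPP against rIAPP. In rIAPP against WT, Psmb8 lay above the highest of the 45 (Psme1, 0.11) but was smaller in size than the lowest (Psmf1, -0.22). It was not called there by edgeR. Psmb10 ranged from 8.54 to 9.31 CPM in WT, from 7.40 to 10.7 in hIAPP and from 10.04 to 15.4 in rIAPP. All its rIAPP libraries were above all WT libraries, where 14.9% of all genes were separated in either direction. Psmb10 was higher in rIAPP than in WT by 0.49 ± 0.094 (edgeR adjusted p = 4.3e-04) and lower in hIAPP than in rIAPP by -0.49 ± 0.094 (edgeR adjusted p = 4.5e-04). Psmb9 was lower in hIAPP than in rIAPP (-0.29 ± 0.10, edgeR adjusted p = 0.0459) and Psmb8 did not pass (-0.26 ± 0.098, edgeR adjusted p = 0.0563). None of the 3 was called in hIAPP against WT by edgeR, DESeq2 or limma-voom, and none had an unadjusted p under 0.05 there. The Psmb10 call against WT was lost with the acinar covariate (0.29, edgeR adjusted p = 0.22) and kept in the other 19 of 20 alternatives, and that between the transgenic genotypes was kept in 21 of 21. The Psmb9 call was kept in 6 of 21 and lost among others with limma-voom, library totals alone, only these 2 genotypes and the acinar covariate. Macrophages and lymphocytes express these subunits strongly. In these libraries the macrophage sum was lowest in rIAPP. The sum of 7 lymphocyte markers ran from 14.4 to 18.7 CPM in WT, 11.2 to 23.0 in hIAPP and 4.27 to 7.61 in rIAPP. That of 8 endothelial markers ran from 591 to 677, 532 to 608 and 745 to 835 CPM. The part of any of these cell types in the Psmb10 levels was not tested.

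Of 12 other proteasome genes (the core chaperone Pomp, the ubiquitin receptor Adrm1 and associated factors), 1 fell in hIAPP against WT and 3 fell in rIAPP against WT, while 3 were higher in hIAPP than in rIAPP (edgeR, adjusted p of 0.05). Of all genes 15.8%, 26.8% and 27.6% were called in these comparisons, in either direction. Txnl1, a thioredoxin-like protein bound to the regulatory particle, fell in both transgenic genotypes (-0.21 ± 0.069 and -0.27 ± 0.069, edgeR adjusted p = 0.0425 and 0.00564). Fbxo7, an F-box protein that binds PI31, fell in rIAPP by -0.38 ± 0.059 (edgeR adjusted p = 5.8e-05). All its rIAPP libraries lay below all WT libraries, where 14.9% of all genes were separated in either direction. Fbxo7 was higher in hIAPP than in rIAPP by 0.29 ± 0.059 (edgeR adjusted p = 8.2e-04). Ecpas, a proteasome adaptor, fell in rIAPP by -0.21 ± 0.059 (edgeR adjusted p = 0.0110). Ecpas and Zfand2a, a stress-inducible proteasome-binding protein, were higher in hIAPP than in rIAPP by 0.16 ± 0.059 and 0.26 ± 0.065 (edgeR adjusted p = 0.0451 and 0.00414). The Txnl1 call in hIAPP was kept in 8 of 21 alternatives, and lost with the acinar covariate (-0.24), library totals alone (-0.095), only the 2 genotypes and without hIAPP 5 and 6 (-0.16). In rIAPP the Txnl1 and Ecpas calls were lost with the acinar covariate and with library totals alone, and the Fbxo7 call with the acinar covariate (-0.29, edgeR adjusted p = 0.0555). Between the transgenic genotypes the Fbxo7 and Zfand2a calls were kept in 21 of 21 and the Ecpas call in 6 of 21. Pomp was not called in any of the 3 comparisons by edgeR, and DESeq2 called it lower in hIAPP than in rIAPP.

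Proteasome genes are under the control of the transcription factor NRF1, which is encoded by Nfe2l1 and cut free by the protease DDI2 when proteasome activity is short. Nfe2l1 rose in hIAPP against WT, at 233 ± 17.5 CPM beside 205 ± 7.51 (SD, n = 6), a change of 0.19 ± 0.056 (edgeR adjusted p = 0.0282), and did not pass in rIAPP (221 ± 13.0 CPM, 0.11 ± 0.056, edgeR adjusted p = 0.165). Ddi2 fell in rIAPP against WT, from 101 ± 2.85 to 81.0 ± 2.38 CPM (-0.32 ± 0.047, edgeR adjusted p = 2.7e-05). Its libraries did not overlap there, as for 14.9% of all genes, and it was 99.2 ± 7.12 CPM in hIAPP. It was higher in hIAPP than in rIAPP by 0.29 ± 0.047 (edgeR adjusted p = 8.6e-05). These were the genes edgeR called among 6 of this control list, 1 in each comparison, beside 15.8%, 26.8% and 27.6% of all genes. DESeq2 also called Nploc4 in both comparisons with rIAPP. The Nfe2l1 call was lost with the acinar covariate (0.11, edgeR adjusted p = 0.478), without hIAPP 5 and 6 together (0.13, edgeR adjusted p = 0.154) or either alone, without WT 6 and without the filter. The Ddi2 calls were kept in all 20 and 21 alternative analyses.

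Among 11 ubiquitin and shuttle genes, Uba6, a ubiquitin-activating enzyme, fell in both genotypes against WT, from 57.1 ± 1.75 CPM to 46.5 ± 4.41 in hIAPP and 46.7 ± 3.79 in rIAPP. In both cases no transgenic library reached the lowest WT library (-0.30 ± 0.062 and -0.29 ± 0.062, edgeR adjusted p = 0.00278 and 0.00123). Of all genes 6.63% and 14.9% were separated in these comparisons, in either direction. Between the transgenic genotypes, Ubqln2, a shuttle factor, was higher in hIAPP (0.35 ± 0.12, edgeR adjusted p = 0.0306) and Rad23b, another shuttle factor, lower (-0.24 ± 0.080, edgeR adjusted p = 0.0305). Both Uba6 calls were lost with the acinar covariate (-0.19 and -0.15) and kept in the other alternatives, 20 of 21 and 19 of 20. Ubqln2 was kept in 14 of 21, lost without hIAPP 5 and 6 (0.24) and with library totals alone, and Rad23b was kept in 16 of 21. The other genes of the list did not pass edgeR's test. In hIAPP against WT, rIAPP against WT and hIAPP against rIAPP, 1, 1 and 2 of the 11 were called. The shares of all genes were 15.8%, 26.8% and 27.6%.

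The acinar markers moved with both WT comparisons: 21 of 23 were called higher in hIAPP and 23 of 23 in rIAPP, with median log2 changes of 1.87 and 2.27. Of 13 macrophage markers 11 were called higher in hIAPP against WT, and in rIAPP 1 was called higher and 7 lower. Of 9 islet endocrine markers 4 fell in hIAPP and 5 in rIAPP. Of 8 stellate and fibroblast markers 6 were called higher in each, with medians of 0.77 and 1.29. Of 8 endothelial markers 3 were lower in hIAPP and 8 higher in rIAPP, and of 8 ductal markers 4 were lower in hIAPP, while in rIAPP 1 was higher and 2 lower. Of 7 Schwann cell markers 3 were higher in each, and of 5 lymphocyte markers tested 2 were higher in hIAPP and 2 lower in rIAPP. In hIAPP against rIAPP, 11 macrophage markers were higher and 1 lower, 3 lymphocyte markers higher, all 8 endothelial markers lower, 5 endocrine markers higher and 1 lower, 2 stellate and fibroblast markers higher and 2 lower, 2 ductal markers lower, 1 acinar marker lower and 1 Schwann cell marker lower. The part of these markers in the proteasome changes was not tested. The acinar covariate given above largely follows genotype in the WT comparisons and does not settle it.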

How the data were processed

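Total RNA of islets from 18 mice was sequenced after ribosomal RNA depletion (TruSeq with Ribo-Zero, per the labels' protocols). The submitters' processing notes name STAR, HTSeq and the builds GRCm38 and mm10. Their versions, the annotation and any use of strand were not given in the sources used here, so reads of overlapping or antisense genes cannot be told apart. The deposited values are estimated counts per gene in 1 table: 39.2% of the values above 0, and 69.1% of those of the proteasome genes, were not whole. The step by which the authors obtained fractions is not given in the sources used here, and reads shared with processed pseudogenes or with Psme2b may be split. Counts were rounded. Genes passing edgeR's filterByExpr (20244) were fitted in edgeR 4.0.16 (R 4.3.3) with TMM scaling, 1 mean per genotype over all 18 libraries, and the quasi-likelihood test was two-sided with Benjamini-Hochberg adjustment at 0.05.

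CPM values use TMM-scaled totals. Levels per kb use exon lengths of GENCODE M21 (GRCm38). Alternatives were DESeq2 1.42.0, limma-voom (limma 3.58.1), other scalings, no filter, 2 genotypes alone, an acinar or mouse number covariate, and leaving out libraries. Libraries of 1 genotype differed by 28.1 to 271 times the chi-square per degree of freedom of sampling noise, so none was a repeat sequencing of the same library. This measure cannot tell separate libraries of 1 mouse from those of separate mice. The labels name separate mice. The scripts were tested on simulated data. The genes and lists were chosen with earlier results of these data known. Values in every library are given for up to 4 higher and 4 lower called genes per comparison with the smallest p, and for Psmb5. Of the related lists, the 3 interferon-inducible genes, Pomp, Nfe2l1 and up to 4 called genes per comparison are named. Genes called only under an alternative are named after their values were seen.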

Additional observations from a re-analysis of the deposited data

Results flagged for a closer look

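Among 27 groups of 6 libraries (the proteasome genes with values in every library, in each genotype), 3 had a single library far from the others. Chance gives about 1 in 20 for independent groups. These groups share the same 18 libraries, so the count cannot be set against that rate. Psmb5 read 12.6 CPM in rIAPP 4, where the other rIAPP libraries read 8.09 to 9.70. Psmd1 read 77.1 CPM in WT 5, where the other WT libraries read 90.5 to 97.9. Psme1 read 55.8 CPM in hIAPP 6, where the other hIAPP libraries read 48.5 to 51.2.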

How the results depend on the processing

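No paired analysis was possible because the labels give each mouse its own number and none is shared between genotypes. The number of proteasome genes called in hIAPP against WT (6) was 1 with library totals alone, 3 without the filter on low counts (6.46% of all genes), 3 with only these 2 genotypes (14.3%), 0 with the acinar covariate and 0 without hIAPP 5 and 6. Leaving out 1 library at a time gave 3 to 17, the 17 without WT 5 (19.2% of all genes) and the 3 without WT 1 or without WT 6. In rIAPP against WT (4) it was 0 with the acinar covariate and 3 to 11 leaving out 1 library, the 11 without WT 5 (25.9% of all genes). In hIAPP against rIAPP (2) it was 4 with only these 2 genotypes (27.3%) and 2 to 6 leaving out 1 library, the 6 without rIAPP 1. DESeq2 called 8, 5 and 3 (19.2%, 29.2% and 30.2% of all genes) and limma-voom 6, 4 and 2 (15.1%, 27.2% and 27.6%). The median log2 change moved to 0.02792 in hIAPP against WT and 0.09791 in rIAPP against WT with library totals alone. The causes were not tested. Leaving out 1 library, the medians ranged from -0.126 to -0.0703, from -0.0593 to 1.4e-04 and from -0.069 to -0.0513. The sign of the Psmb5 change, near 0 throughout, turned in hIAPP against rIAPP with DESeq2 (0.002324), limma-voom (0.006758), no filter (0.0004509) and only these 2 genotypes (0.005615), and without hIAPP 4 (0.00702), hIAPP 6 (0.02393), rIAPP 1 (0.002054) or rIAPP 4 (0.09256). Leaving out 1 library it ran from -0.04731 to 0.09256 there, and in rIAPP against WT from -0.01381 (without rIAPP 4) to 0.1331. With all 18 libraries in edgeR, the smallest called change of a proteasome gene was that of Psme4, which fell by 0.16 on the log2 scale in hIAPP against WT.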
